A study of Citrus reticulata and Citrus x clementina and Citrus x paradisi with 16 samples.

Results

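LAC, a laccase that the study annotates as similar to laccase 7, was followed across ovules of 4 citrus cultivars. It was chosen by its identifier, as 1 gene of the 20373 loci of the PK/CM table (Ciclev10011377m.g) and 1 of the 22595 loci of the GF/PU table (Cs6g07400). The choice was made with its differences between cultivars already known, so those differences are given below as a description, without a test. The study lists LAC among the predicted targets of the microRNA miR397.

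The ovules came from polyembryonic 'Huagan No.2' Ponkan mandarin (PK) and monoembryonic 'Nour' clementine (CM), and from polyembryonic 'Cocktail' grapefruit (GF) and monoembryonic 'Huanong red' pummelo (PU). Flowers of all 4 cultivars had been hand-pollinated with pollen of trifoliate orange, and each library was made from pooled ovules. The stage before nucellar embryo initiation (pre-NEI) was 3 days after flowering in PK and CM and 0 days in GF and PU, and the initiation stage (NEI) was 7 and 3 days, named after the first initiation cells in PK and GF, so that in CM and PU it marks only the matching day. There were 16 libraries in 8 groups of 2, the replicates of a group coming from consecutive years that the sources do not assign to replicate numbers.

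Laccases are multicopper oxidases of the cell wall that oxidise phenolic compounds, among them the monolignols that are joined into lignin. Plants carry many laccase genes. In Arabidopsis and rice, miR397 pairs with laccase transcripts and lowers their level, and it is known there for effects on lignin and on seed number and grain size. Nucellar embryos arise from maternal cells of the nucellus, and a thickened wall is one of the features by which their first cells are recognised.

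LAC counts in the 2 replicates of PK were 6581 and 4015 at pre-NEI and 15722 and 20805 at NEI. In CM they were 12967 and 12487 at pre-NEI and 2200 and 1317 at NEI. The order of the 2 cultivars thus differed between the stages, with every CM library above every PK library at pre-NEI and every PK library above every CM library at NEI. Scaled to counts-per-million (CPM) with the TMM library factors, PK held 238 ± 70.5 at pre-NEI and 959 ± 76.2 at NEI (SD, n = 2). CM held 634 ± 121 at pre-NEI and 105 ± 62.4 at NEI (SD, n = 2). By count, LAC was locus number 50 of 20373 in replicate 2 of PK at NEI and number 115 in replicate 1. It was number 1831 and 3571 in the 2 CM libraries of that stage.

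GF had 1284 and 4328 LAC counts at pre-NEI and 3925 and 3036 at NEI. PU had 58 and 43 counts at pre-NEI and only 20 and 4 at NEI. Every GF library therefore lay above every PU library at both stages, without the crossing seen in the mandarins. The CPM values were 71.1 and 136 in GF at pre-NEI and 235 and 236 at NEI, against 3.15 and 3.45 in PU at pre-NEI and 1.01 and 0.268 at NEI. A count of 0 would have allowed up to 3 counts, which was 0.0945 to 0.24 CPM in these libraries, so the 4 counts of replicate 2 of PU at NEI were close to the limit of detection. The total over all loci was 17.9 to 24.9 megacounts per library in PK/CM and 11.8 to 34.2 megacounts in GF/PU.

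**Figure D1:**
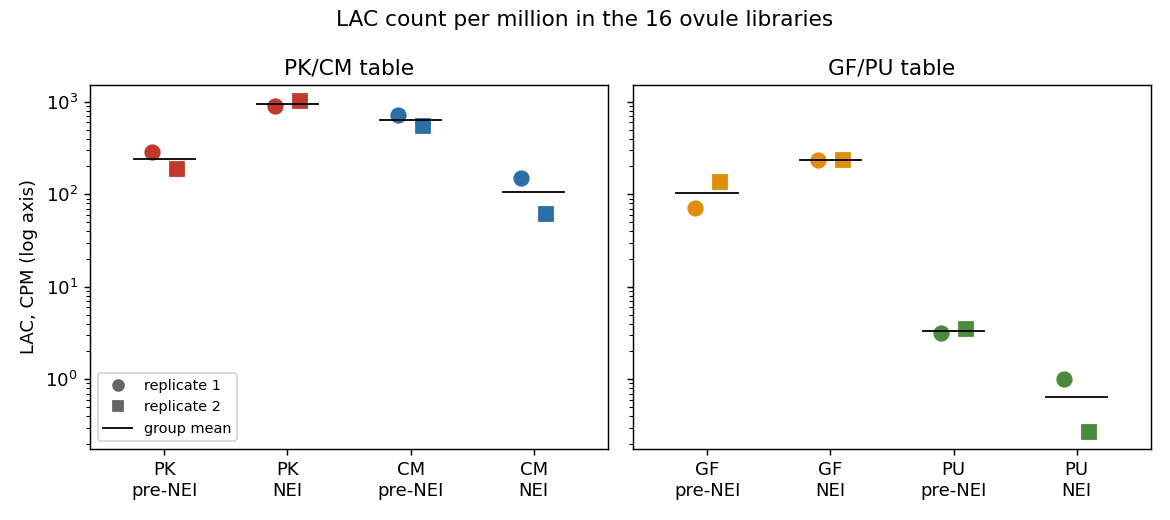
LAC in each of the 16 libraries, as counts-per-million on a log axis, with circles for replicate 1, squares for replicate 2 and a line at the mean of each group. PK and CM change order between the stages, while GF stays above PU at both, and PU at NEI holds the lowest values, 1.01 and 0.268 CPM.

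Ordered by mean CPM, the PK/CM groups ran from CM at NEI (105) through PK at pre-NEI (238) and CM at pre-NEI (634) to PK at NEI (959). No neighbours in this order overlapped, although the highest CM library at NEI (149 CPM) and the lowest PK library at pre-NEI (188 CPM) were close relative to the 2.44-fold gap between the CM replicates at NEI. In GF/PU the order ran from PU at NEI through PU at pre-NEI and GF at pre-NEI to GF at NEI, again with no overlap. The scaled replicates of GF at NEI were nearly equal and those of PU at NEI 3.76-fold apart. The tables had been aligned to different genomes and were normalised separately, so CPM values of one table were not compared with those of the other.

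Without the TMM factors the GF replicates at NEI were 203 and 234 CPM and the PK replicates at NEI 834 and 1120 CPM. The close match of the GF replicates was thus partly set by the scaling. The order of the groups was the same in both pairs of cultivars.

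In PK vs CM at pre-NEI the difference of LAC was -1.41 ± 0.50 on the log2 scale (SE of the edgeR fit, 2 libraries per group), which is 2.66-fold lower in PK, and the nearest libraries of the 2 cultivars were 1.9-fold apart. At NEI it was 3.19 ± 0.53, 9.11-fold higher in PK, with the nearest libraries 6.06-fold apart. Leaving out replicate 1 of CM at NEI, the higher of the CM libraries, moved this difference to 3.95. In GF vs PU the difference was 4.98 ± 0.54 at pre-NEI, 31.5-fold higher in GF. At NEI it was 8.46 ± 0.65, with a ratio of group means of 370. This last value rested on the 24 PU counts of that stage. From summed counts the ratio was 342, with an exact 95% binomial interval of 230 to 534 that covers counting error only, and the fitted difference was 9.73 without replicate 1 of PU at NEI and 7.84 without replicate 2. With only 1 cultivar of each kind per pair, the type of embryony and the remaining genetic differences of the cultivars cannot be told apart. Both comparisons of a pair use the same fit of 8 libraries.

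The change with stage within a cultivar was tested with the edgeR quasi-likelihood test, adjusted by Benjamini-Hochberg over all loci. LAC was chosen with cultivar differences known that rest on the same libraries. Its stage p-values are therefore not free of that choice. LAC did not pass it in any cultivar, and neither did any other locus, since 0.0% of the loci were called at an adjusted p under 0.05 and a 2-fold change in each of the 4 stage comparisons. In PK the NEI libraries lay above the pre-NEI libraries, at 4.03-fold the mean (log2 fold change 2.01 ± 0.51, SE, adjusted p 0.995). In CM they lay below, with a log2 fold change of -2.59 ± 0.52 (adjusted p 0.408). In GF they lay above again (1.18 ± 0.46, adjusted p 0.26), and in PU below (-2.30 ± 0.56, adjusted p 0.108). The 2 stages did not overlap in any of the 4 cultivars. Bulk ovule RNA does not tell fewer LAC-expressing cells apart from less LAC RNA per cell.

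The test used decided whether LAC was called in the monoembryonic cultivars. These calls too use the libraries behind the cultivar differences that LAC was chosen with. With the edgeR exact test, LAC was called lower at NEI in CM (adjusted p 0.00977, where 0.747% of all loci were called) and in PU (adjusted p 0.00445, 4.71% of all loci). DESeq2 called the same changes, at an adjusted p of 0.000396 in CM (2.02% of all loci) and 0.00319 in PU (8.58%). In PK neither the exact test (adjusted p 0.419, 0.032% of all loci called) nor DESeq2 (0.071, 0.08% called) called LAC. The same held in GF, at 0.167 with 4.14% of all loci called and 0.13 with 6.18% called. Over all alternatives tried, the adjusted p ran from 0.071 to 1.0 in PK, 0.000396 to 0.873 in CM, 0.13 to 0.675 in GF and 0.00319 to 0.394 in PU. At an unadjusted p under 0.05 the quasi-likelihood test held 692 loci in PK, 1775 in CM, 3358 in GF and 4191 in PU. These were 3.69%, 9.47%, 16.8% and 21% of all loci, with LAC among them in all 4. In PK the smallest adjusted p of any locus was 0.995. The place of LAC among the 692 loci is therefore not read as evidence of a stage change in PK. The exact test called 6, 140, 825 and 940 loci in the stage comparisons of PK, CM, GF and PU, and DESeq2 15, 379, 1232 and 1712.

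The CM and PU stage changes also depended on the NEI libraries with few counts. Without replicate 1 of CM at NEI the CM value was -3.32, and without replicate 2 it was -2.09. For PU the values were -3.57 without replicate 1 at NEI and -1.69 without replicate 2. From summed counts, PU at pre-NEI held 4.74 times the LAC rate of PU at NEI, with an exact 95% binomial interval of 3.01 to 7.74.

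Set side by side, LAC was higher at NEI in both polyembryonic cultivars and lower in both monoembryonic ones, in every library. Among the 18749 loci tested in PK/CM, 358 (1.91%) had at least a 2-fold higher estimate at NEI in PK together with at least a 2-fold lower one in CM, and 201 (1.07%) had the opposite pattern. In GF/PU the numbers were 144 (0.722%) and 351 (1.76%) of 19943. LAC was thus 1 of a small share of loci with these estimates, none of which passed the quasi-likelihood test in a stage comparison. A 2-fold lower estimate in PK at pre-NEI together with a 2-fold higher one at NEI, as LAC had, was found at 209 loci (1.11%). These counts use the same libraries that LAC was chosen with and describe its rank only.

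LAC was assembled as 2 transcripts in PK/CM and as 1 in GF/PU. The PK/CM locus lay on scaffold 6 of the clementine genome, from 15301388 to 15304785 on the plus strand, a span of 3398 bases. Its transcripts were 2187 and 1313 bases long, with 44.86% and 45.62% G and C, and both are given with the coordinates of the locus, so the exons, introns and untranslated parts of each were not mapped here. The GF/PU locus lay on chromosome 6 of the sweet orange genome, from 9231008 to 9234353 on the plus strand, with a transcript of 2066 bases and 45.01% G and C. A single transcript was assembled at 37.6% of the PK/CM loci and 41.2% of the GF/PU loci.

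The authors' FPKM, a value per length and depth with the replicates pooled, gave the same order of groups. The longer transcript had 77.5 FPKM in PK at pre-NEI and 303.7 at NEI, and 227 in CM at pre-NEI and 31.1 at NEI. The shorter one had 54.3 and 218 in PK and 109 and 28.5 in CM. Neither transcript therefore departed from the order of the locus. In PK at NEI the longer transcript was number 251 of 88819 transcripts of at least 300 bases (the top 0.283%), and in CM at NEI it was number 3901 (the top 4.39%).

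The GF/PU transcript had 50.6 FPKM in GF at pre-NEI, 114 at NEI, and 1.77 and 0.334 in PU. It was number 1169 of 92210 transcripts in GF at NEI (the top 1.27%) and number 59547 in PU at NEI (the top 64.6%). At pre-NEI it was in the top 2.65% in GF and the top 38.1% in PU. On log2 ratios of FPKM the stage changes were 1.97 in PK, -2.87 in CM, 1.17 in GF and -2.40 in PU.

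In PK/CM the count of the shorter transcript was 0.695 to 0.705 times that of the longer one in the 4 PK libraries, 0.672 and 0.668 in CM at pre-NEI, and 0.709 and 0.762 in CM at NEI. The length ratio of the transcripts was 0.6, and many reads were counted for both, so these ratios do not give the share of either transcript. The shorter transcript made up 41.2% of the FPKM of the locus in PK at pre-NEI and 41.8% at NEI, against 32.4% and 47.8% in CM. These shares have no replicates. The CM libraries at NEI, with the fewest counts, held both the highest ratio and the largest share of the shorter transcript.

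**Figure D2:**
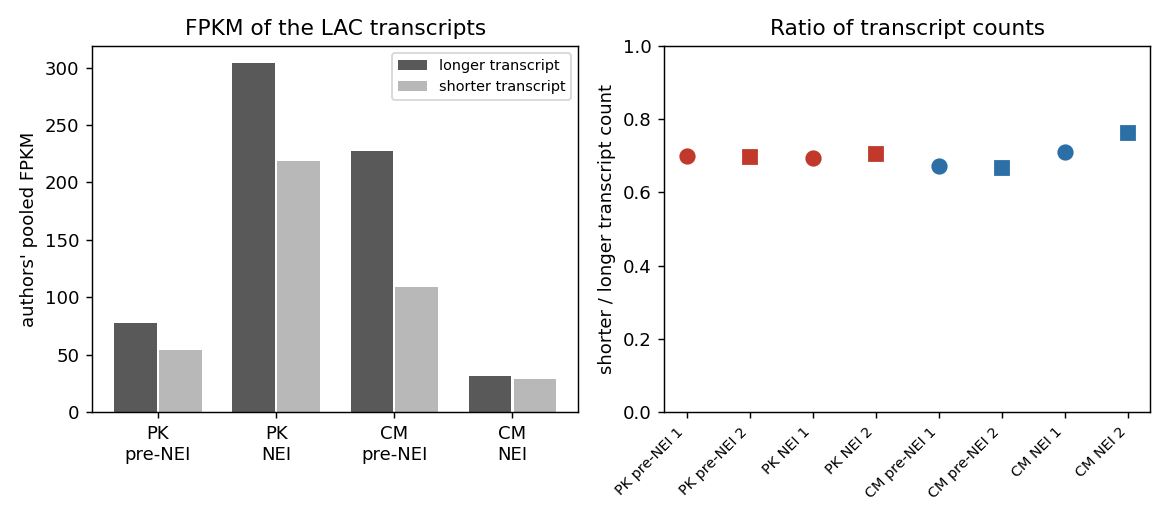
The 2 LAC transcripts of the PK/CM table. The left panel shows the authors' FPKM, pooled over replicates, for the longer and the shorter transcript in each group, and the right panel the count of the shorter transcript divided by that of the longer one in each library (red for PK, blue for CM, circles for replicate 1 and squares for replicate 2). Both transcripts are highest in PK at NEI, and the ratio stays between 0.668 and 0.762.

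LAC lay in a cluster of laccase genes. In the clementine genome a locus annotated as laccase 7 (Ciclev10011384m.g, scaffold 6, 15311565 to 15314667, plus strand) began 10177 bases after the LAC start, with a gap of 6780 bases between the loci. A further laccase (Ciclev10011375m.g, 15354756 to 15357478) lay on the minus strand, 53368 bases away. In the sweet orange genome the same arrangement was found, with Cs6g07410 (chromosome 6, 9240619 to 9243745, plus strand) 9611 bases and Cs6g07450 (9282629 to 9285385, minus strand) 51621 bases from the LAC start. All 4 are listed by the study as miR397 targets. The study describes Cs6g07410 as a hypothetical protein under the name CICLE_v10011384mg. It is counted as a laccase here because that name matches Ciclev10011384m.g. Of the 13 laccase identifiers other than LAC that the study predicts for miR397 in PK/CM, the other 11 had no locus under their name in the table and were not analysed here.

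**Figure D3:**
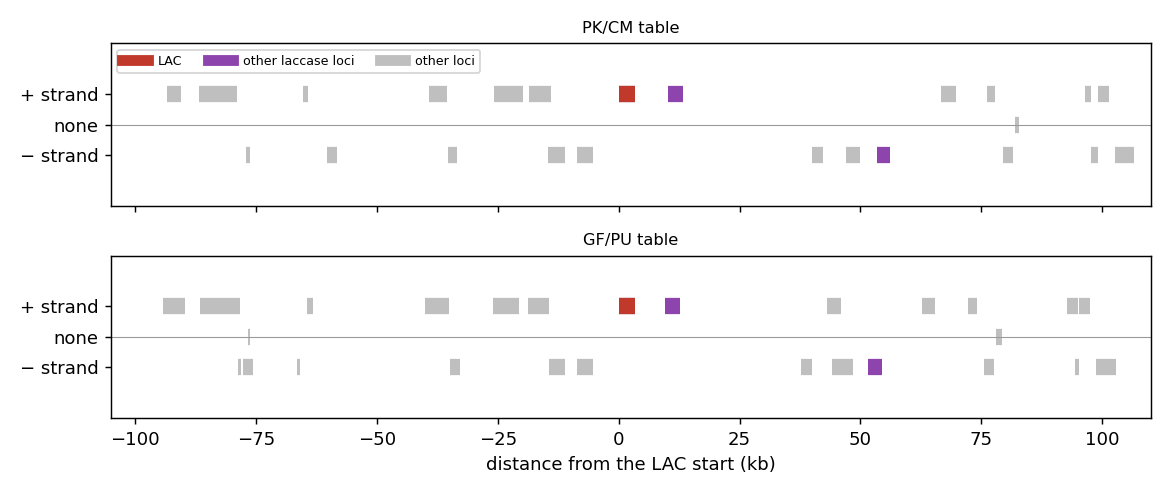
Loci around LAC in each genome, drawn by distance from the LAC start in kb and by strand, with LAC in red, other laccase loci in purple and all other loci in grey. In both genomes a laccase lies about 10 kb after LAC on the same strand and another more than 50 kb away on the opposite strand.

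LAC was the most abundant laccase of these loci in 7 of the 8 groups. On the authors' FPKM summed over the transcripts of a locus, it exceeded the next laccase 103-fold in PK at pre-NEI, 126-fold in PK at NEI, 66.2-fold in CM at pre-NEI and 34.5-fold in CM at NEI. In GF it exceeded the next one 10.4-fold at pre-NEI and 48.9-fold at NEI. In PU the ratio was 1.62 at pre-NEI and 0.631 at NEI, where Cs6g07450 had 0.529 FPKM and LAC 0.334. Of the FPKM summed over the laccase loci measured here, LAC made up 94.4% to 98.7% in the PK and CM groups. It made up 90.2% and 96.1% in GF and 61.4% and 38.7% in PU, at pre-NEI and NEI. Laccases that were not found by name are not in this sum. FPKM carries no replicate error here.

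The neighbouring laccase 7 crossed between PK and CM like LAC, at a much lower level. Ciclev10011384m.g had 22 and 46 counts in PK at pre-NEI, 100 and 259 in PK at NEI, 176 and 264 in CM at pre-NEI and 30 and 48 in CM at NEI, which was 0.334% to 3.64% of the LAC count of the same library. CM lay above PK at pre-NEI and below it at NEI without overlap, as for LAC. Its log2 fold changes were -2.77 ± 0.61 for PK vs CM at pre-NEI (adjusted p 0.0551) and 2.10 ± 0.60 at NEI (adjusted p 0.179). For NEI vs pre-NEI they were 2.56 ± 0.61 in PK (adjusted p 0.995) and -2.32 ± 0.60 in CM (adjusted p 0.412). With a block for the replicate number the pre-NEI difference was called, at -2.86 ± 0.49 (adjusted p 0.0147).

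In sweet orange coordinates the adjacent laccase Cs6g07410 had 17 and 67 counts in GF at pre-NEI and 35 and 98 at NEI. PU had 0 and 1 counts at pre-NEI and 0 in both libraries at NEI. It passed the minimum of 1 CPM in 2 libraries only through GF, so that it could be tested only if GF was high. At NEI it was called higher in GF (adjusted p 0.0144), at least 27.6-fold against 3 counts per PU library. This call held in 14 of 15 alternatives and was lost without replicate 2 of PU at NEI (adjusted p 0.0703), and the locus did not pass the filter with a minimum of 5 CPM or with the sum over transcripts. At pre-NEI the ratio from summed counts was 52.2, with an exact 95% counting interval of 9.11 to 2080, and the adjusted p was 0.0745. It was called there in 3 of 14 alternatives. These were the block for the replicate number (adjusted p 0.0286), the exact test (adjusted p 0.00346) and DESeq2 (adjusted p 0.0149).

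The adjacent laccases held at most 3.64% of the LAC count in PK/CM and 3.23% in GF/PU. Cs6g07410 overlapped between the GF stages, with 0.942 and 2.11 CPM at pre-NEI and 2.10 and 7.62 at NEI, and its PU stages held 1 and 0 counts. Laccases are similar in sequence, and how reads that align to several genes were counted is not given in the sources used here. Whether part of the counts of the neighbours came from LAC reads was not tested.

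The laccases on the minus strand were measured in the same way. Ciclev10011375m.g had 10 to 74 counts in the PK libraries and 35 to 95 in the CM libraries, and its log2 fold changes were -1.27 ± 0.86 and 0.42 ± 0.85 for PK vs CM and 1.29 ± 0.86 and -0.40 ± 0.85 for the stage in PK and CM, none of them called. Cs6g07450 had 72 and 185 counts in GF at pre-NEI and 57 and 26 at NEI, and 33 and 13 in PU at pre-NEI and 12 and 11 at NEI. It was higher in GF at NEI (2.02 ± 0.58, adjusted p 0.0439). This call was lost in 10 of 16 alternatives, among them the fit without replicate 1 of GF at NEI (1.52, adjusted p 0.194). Its stage estimates were -0.85 ± 0.54 in GF and -1.09 ± 0.58 in PU, so that in GF its estimate had the opposite sign to that of LAC.

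A laccase outside the cluster and outside the miR397 list, Ciclev10025287m.g (laccase 11, scaffold 7), had 3 to 39 counts in the PK/CM libraries. Its groups overlapped in all comparisons but that of the PK stages, and none was called.

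Taking the laccases other than LAC by number, the quasi-likelihood test called 0 of 3 in PK vs CM at pre-NEI, where 3.6% of all loci were called (1.12% higher and 2.48% lower in PK), and 0 of 3 at NEI, where 1.64% were (0.496% and 1.14%). In GF vs PU it called 0 of 2 at pre-NEI, against 6.57% of all loci (4.24% higher and 2.33% lower in GF). At NEI it called both as higher in GF, where 21.7% of all loci were called, 12% as higher and 9.79% as lower. Since Cs6g07410 could be tested only if it was high in GF, its calls are not read against these shares.

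In PK vs CM at pre-NEI 1 of the 3, the neighbour of LAC, had an unadjusted p under 0.05, as had 22.3% of all loci. It was called there with the block (10.7% of all loci called), with the exact test (8.25%) and with DESeq2 (13%). At NEI it alone had an unadjusted p under 0.05 and was called by DESeq2 (5.79% of all loci) and not by the exact test (4.31%). In GF vs PU at pre-NEI both laccases had an unadjusted p under 0.05 (23.7% of all loci). The exact test called 1 (10.9% of all loci) and DESeq2 both (13.1%). No laccase was called in a stage comparison by the quasi-likelihood or the exact test. DESeq2 called the neighbour of LAC in PK (0.08% of all loci) and in CM (2.02%). In both it was also the only one with an unadjusted p under 0.05 (3.69% and 9.47% of all loci).

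**Figure D4:**
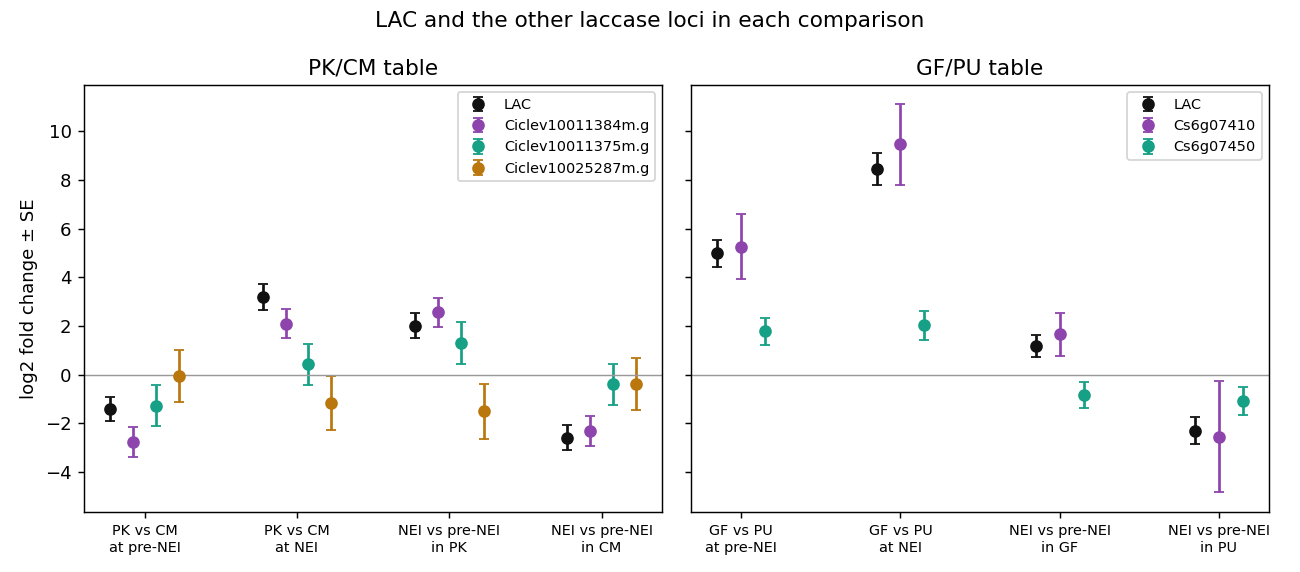
Log2 fold changes with their SE for LAC and the other laccase loci in the 8 comparisons, with positive values for higher levels in the polyembryonic cultivar or at NEI. The neighbour about 10 kb from LAC (purple) has the sign of LAC in all 8, while the minus-strand laccase (green) has the opposite sign to LAC in the stage comparison in GF. The purple values for GF vs PU and for PU rest on 0 or 1 counts in PU and are not bounds.

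Loci around LAC that are not laccases were mostly not called, and neither were most loci of the tables. The nearest locus before LAC, on the minus strand, was Ciclev10012003m.g in clementine, 5287 bases away and with 22 to 79 counts, and Cs6g07390 in sweet orange, 5252 bases away and with 15 to 65 counts. Their estimates lay between -1.03 and 0.96 in all comparisons, and none was called. Within 100 kb of LAC, 0 of 19 tested loci were called in PK vs CM at either stage, against 3.6% and 1.64% of all loci. With shares this low, 0 of 19 does not set the neighbourhood apart. There were 3 and 1 at an unadjusted p under 0.05 (22.3% and 12% of all loci). The exact test called 1 and 1 (8.25% and 4.31%), and DESeq2 called 3 and 1 (13% and 5.79%). In GF vs PU, 0 of 23 were called at pre-NEI, against 6.57% of all loci. At an unadjusted p under 0.05 there were 3 (23.7% of all loci). The exact test called 0 (10.9%) and DESeq2 1 (13.1%). At NEI 1 was higher and 2 were lower, against 21.7% of all loci called. There 9 had an unadjusted p under 0.05 (40.1% of all loci), the exact test called 6 (26.4%) and DESeq2 7 (29.6%).

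The other predicted targets of miR397, which are not laccases, were read beside LAC. Of 6 tested in PK/CM, the quasi-likelihood test called none at either stage between cultivars, where 3.6% and 1.64% of all loci were called. At pre-NEI 1, an H(+)-ATPase, had an unadjusted p under 0.05 (4.10 ± 1.18, adjusted p 0.106), as had 22.3% of all loci. It was called there by the exact test (8.25% of all loci), by DESeq2 (13%) and with the block (adjusted p 0.0467, 10.7% of all loci). Of 5 tested in GF/PU, none was called at pre-NEI, against 6.57% of all loci. At NEI 1 was called, a mitochondrial-type aconitate hydratase (Cs2g21430, an enzyme of the citric acid cycle), at 1.63 ± 0.32 (adjusted p 0.0154). That is 1 of 5 where 21.7% of all loci were called. The exact test and DESeq2 each called 2 (26.4% and 29.6% of all loci), the same number as at an unadjusted p under 0.05 (40.1%). The median over the targets was -0.13 and 0.09 in PK vs CM and 0.18 and 0.92 in GF vs PU at pre-NEI and NEI, against medians of all loci of 0.0 to 0.06. At NEI the difference of LAC was larger than that of any of these targets, and at pre-NEI in PK vs CM it was smaller than that of the H(+)-ATPase. The level of miR397 itself was not analysed here.

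Lignin-related entries of the study's list of genes common to both pairs, which was chosen on these libraries and is no independent evidence of direction, were also counted. They are peroxidases, which like laccases oxidise monolignols, a hydroxycinnamoyl transferase and O-methyltransferases, which act in the synthesis of monolignols. In PK vs CM, 3 of 9 loci were higher and 1 lower at pre-NEI (1.12% and 2.48% of all loci), and 4 were higher and 1 lower at NEI (0.496% and 1.14%). Called hydroxycinnamoyl transferase loci at pre-NEI and called peroxidase loci at NEI overlapped each other. The counts are therefore not of separate genes and are not read against these shares. The exact test and DESeq2 each called 4 at pre-NEI (8.25% and 13% of all loci) and 7 at NEI (4.31% and 5.79%). With the block 6 were called at NEI (3.33% of all loci), the added one being an O-methyltransferase (Ciclev10023568m.g, adjusted p 0.0351 in place of 0.11). In GF vs PU, 2 of 6 were higher at pre-NEI and 3 at NEI (4.24% and 12% of all loci). Both loci called at pre-NEI, Cs1g11780 and Cs5g18040, were also called at NEI. Their PU group means were at most 0.202 CPM, so they passed the minimum of 1 CPM only through GF. Their calls are therefore not read against these shares. The exact test and DESeq2 each called 5 at pre-NEI (10.9% and 13.1% of all loci) and 6 at NEI (26.4% and 29.6%). None was called in a stage comparison by the quasi-likelihood test. At an unadjusted p under 0.05 there were 5 of 9 in PK and 4 of 9 in CM (3.69% and 9.47% of all loci). In GF there were 3 of 6 and in PU 1 of 6 (16.8% and 21% of all loci). The exact test called 1 and DESeq2 2 in GF (4.14% and 6.18% of all loci), and neither called any in the other 3 cultivars. The list was chosen on these libraries and some of its loci overlap, so these stage counts are not read against the shares. The peroxidase locus of highest mean CPM in PK/CM (Ciclev10015779m.g) had 67.2 ± 4.34 CPM in PK and 56.2 ± 11.4 in CM at pre-NEI, and 169 ± 23.1 and 30.7 ± 8.62 at NEI (SD, n = 2). It was called higher in PK at NEI and not at pre-NEI (2.46 ± 0.33 with adjusted p 0.0209, and 0.26 ± 0.31).

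The loci whose profile over the 8 libraries was most like that of LAC were found by the Pearson correlation of log2(CPM + 1), as a description. In PK/CM the 5 highest were Ciclev10015653m.g (0.953), Ciclev10028353m.g (0.951), Ciclev10031324m.g (0.939), Ciclev10032830m.g (0.924) and Ciclev10001159m.g (0.924), among 10882 loci with 1 reference gene and a mean of at least 5 CPM. Their group means spanned far less than those of LAC. Ciclev10028353m.g, with the widest relative span, had 5.37 and 10.9 CPM in PK and 10.5 and 3.01 in CM at pre-NEI and NEI. Only 13 of the loci (0.119%) had a correlation over 0.9.

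In GF/PU the 5 highest were Cs5g14090 (0.994), Cs5g23880 (0.994), Cs4g18090 (0.992), Cs9g06890 (0.991) and Cs5g05440 (0.99) among 11855 loci. Here 486 loci (4.1%) had a correlation over 0.9. Cs4g18090 had 30.2 and 67.5 CPM in GF and 2.45 and 0.838 in PU, which is higher at NEI in GF and lower in PU like LAC. The files carry no description of these genes, and the 8 points of each correlation share 4 groups and the library totals.

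From the study's common list, 100 pairs of loci between the tables were tested and had a mean of at least 5 CPM in both. Some loci are in more than 1 pair. The lower of the correlations in the 2 tables was highest for a predicted protein (Ciclev10009811m.g and Cs4g20420, 0.889) and an unnamed protein (Ciclev10008862m.g and Cs4g08270, 0.887). They were followed by an S-like ribonuclease (Ciclev10032651m.g and Cs7g03770, 0.853), a pectinesterase 2 (Ciclev10019773m.g and orange1.1t00214, 0.813) and the peroxidase named above (0.811). The pectinesterase, an enzyme that removes methyl groups from cell wall pectin, had 21.5 ± 10.2 CPM in PK and 122 ± 27.4 in CM at pre-NEI, and 204 ± 6.51 in PK and 36.1 ± 20.2 in CM at NEI (SD, n = 2). It thus crossed between PK and CM as LAC did. In GF/PU it had 20.4 ± 3.53 and 20.8 ± 15.9 CPM in GF and 0.592 ± 0.0696 and 0.184 ± 0.118 in PU, with no difference in mean between the stages in GF.

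**Figure D5:**
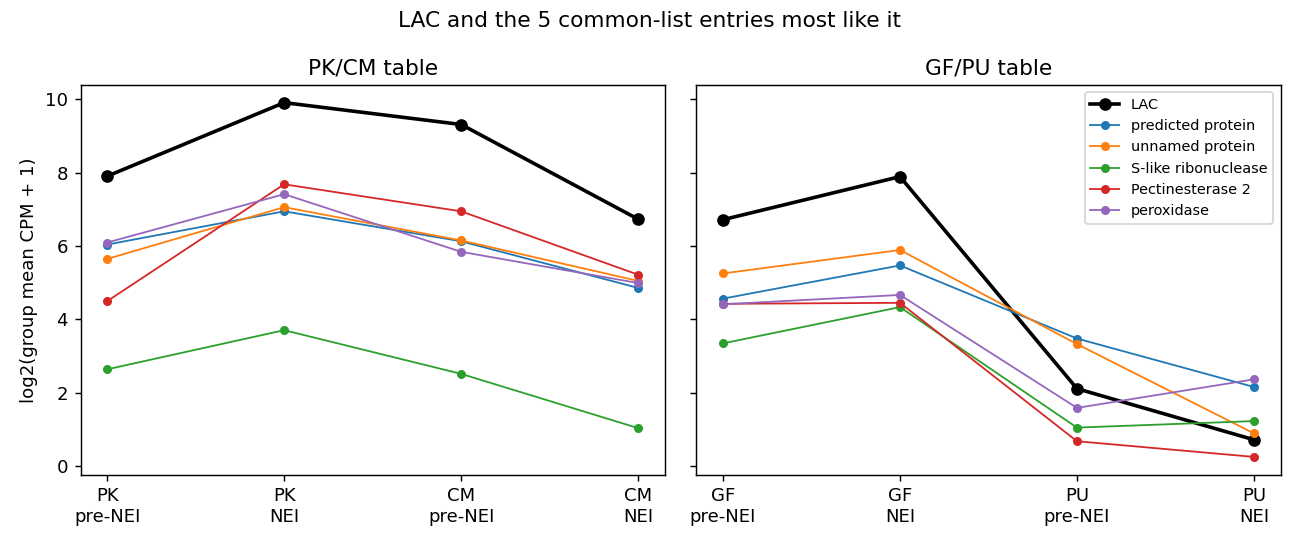
Group means of LAC and of the 5 entries of the study's common list most like it, as log2(CPM + 1), in the groups of each table. All 6 lines are highest in PK at NEI on the left, and LAC and the pectinesterase have the widest gaps between CM and PK at pre-NEI.

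Transcripts that mark other tissues were read for the same groups. A Rubisco small subunit, a mark of green tissue, was lower in GF than in PU, with 103 ± 22.5 against 272 ± 25.2 CPM at pre-NEI and 45.9 ± 10.3 against 107 ± 5.53 at NEI (SD, n = 2), and was called at both stages. In PK/CM its group means were 35.1 to 227 CPM and those of a chlorophyll a-b binding protein 12.3 to 44.0 CPM. Neither was called by the quasi-likelihood test in PK vs CM, although at pre-NEI each had an unadjusted p under 0.05 and was called with the block, the exact test and DESeq2. With the block the adjusted p at pre-NEI was 0.00624 for the Rubisco small subunit and 0.0391 for the chlorophyll a-b binding protein. At that stage they went in opposite directions. The Rubisco small subunit was lower in PK (35.1 against 227 CPM in CM). The chlorophyll a-b binding protein was higher in PK (44.0 against 12.3 CPM). A pollen-specific protein had 138 to 261 CPM in the GF/PU groups and was not called. Their part in the LAC differences was not tested. The defining genes of ovule and nucellus could not be looked up, because the files carry no descriptions, so the tissue named in the labels was not checked against them.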

How the data were processed

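Ovule mRNA of 16 libraries had been sequenced. The authors used the clementine genome as reference for PK/CM and the sweet orange genome for GF/PU and, per the labels, TopHat, Cufflinks and Cuffdiff. Versions, genome releases, the read counter and its strand setting are not given in the sources used here. The deposited tables hold a whole-number value per assembled transcript and library, read here as a count although the headers name no unit, and the authors' FPKM per cultivar and stage with replicates pooled. The G and C content of each transcript is a percent value, deposited with the assembly. Reads shared by isoforms appear in the count of each, so each locus was given the count of its most counted transcript. The tables were fitted separately.

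Each table of 8 libraries was fitted as 4 groups with the quasi-likelihood test of edgeR 4.0.16 (R 4.3.3), with TMM factors and Benjamini-Hochberg adjustment over the loci with at least 1 CPM in 2 libraries (18749 in PK/CM, 19943 in GF/PU). A locus was called at an adjusted p under 0.05 and a log2 fold change of at least 1. The fit was tested on simulated data. DESeq2 1.42.0 and the edgeR exact test were alternatives, with others given in the closing section.

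The members and the gene lists were chosen with earlier results of these data known. Named genes were LAC, laccases with a locus, the nearest locus on each side, up to 4 lignin-related entries per table and the 5 loci most like LAC. The aconitate hydratase, the H(+)-ATPase, the peroxidase Ciclev10015783m.g and the hydroxycinnamoyl transferase locus given with its levels were named after their values were seen. Functions are those the study assigned, except that Cs6g07410 was taken as a laccase from the clementine gene it is named by.

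Shifts between replicates 1 and 2 were compared between groups to see whether replicate numbers pair the libraries. They correlated in all 6 pairs of PK/CM groups (0.329 to 0.56). The main fit nevertheless holds no term for the replicate number, so its PK/CM values are unpaired. The value with replicate number as a block is given where it changed the call of a named gene. With the block, 10.7% of all loci were called in PK vs CM at pre-NEI and 3.33% at NEI, in place of 3.6% and 1.64%. Replicates are consecutive years of the same cultivar, so p-values do not cover the spread between cultivars.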

Additional observations from a re-analysis of the deposited data

Results flagged for a closer look

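The stage change of LAC went in opposite directions in the 2 cultivars of each pair. In PK both NEI libraries lay above both pre-NEI libraries and in CM both lay below, and the difference between these log2 stage changes was 4.60 ± 0.73 (SE). In GF both lay above and in PU both below, with a difference of 3.49 ± 0.72. Neither difference was tested, since LAC was chosen with the comparisons of cultivars known from which it is built. Without replicate 1 of CM at NEI the first was 5.33, and without replicate 1 or replicate 2 of PU at NEI the other was 4.76 or 2.87.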

How the results depend on the processing

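No LAC difference changed sign under any alternative tried. The stage change of LAC was called in CM with the edgeR exact test (-2.59) and DESeq2 (-2.58) and in PU with the same tests (-2.30 and -2.29), and not with the quasi-likelihood test. All of these use libraries that LAC was chosen with. Leaving out 1 library at a time gave -1.75 to -1.14 and 2.68 to 3.95 for PK vs CM at pre-NEI and NEI, 4.44 to 5.38 and 7.84 to 9.73 for GF vs PU, stage changes of 1.74 to 2.35 in PK, -3.32 to -2.09 in CM, 0.79 to 1.72 in GF and -3.57 to -1.69 in PU, and stage-by-cultivar differences of 4.1 to 5.33 and 2.87 to 4.76. Of the other laccases, 0 were called in PK vs CM at pre-NEI, but 1 with replicate number as a block, with the exact test, with DESeq2 and with only the 4 libraries (0 to 1 with 1 library left out). DESeq2 also called 1 instead of 0 in PK vs CM at NEI and in the stage comparisons of PK and CM. In GF vs PU at pre-NEI 0 became 1 with the block and the exact test and 2 with DESeq2. At NEI 2 became 1 with library totals (chosen after seeing the data), without a filter on low counts, with the sum over transcripts and with only the 4 libraries, and 0 with a minimum of 5 CPM, which removes low loci, and ran from 0 to 2 with 1 library left out. The cause of the other shifts was not tested. In GF/PU the replicate shifts correlated unevenly (0.0726 to 0.624), and pairing was not assumed in the main fit of either table. With the block, 461 loci were called between stages in GF and 507 in PU in place of 0. The block changed no LAC call. Of the 5 loci most like LAC, 5 in PK/CM, 3 in GF/PU and 4 of the common list were kept with a pseudocount of 0.1. The lowest library, of PU at NEI, held only 4 LAC counts, which limits the precision of the PU values.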
